A study of Drosophila melanogaster with 3 samples.

Results

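The 500 strongest binding sites of the zinc finger protein D19A were the 500 entries of highest deposited signal value among the 7769 sites that the authors retained by their irreproducible discovery rate (IDR) procedure, which keeps peaks whose ranks agree between replicates. The sites were chosen by that pooled signal value, so signal, width and rank are given below as descriptions, without a test. The measurements came from 3 biological replicates of Drosophila melanogaster embryos, aged 0 to 20 h and of pooled sex. They were from a transgenic line that stably expresses D19A with GFP fused to its C-terminus. Chromatin immunoprecipitation followed by sequencing (ChIP-seq) was done with anti-GFP antibody per the description, while another label field gives D19A as the antibody. Each replicate list was derived by the authors from its own alignments and from 1 control file that the replicates share. All libraries carry the same transgene, and no untagged group was analysed here. Whole embryos mix many cell types and ages, so a strong site cannot be told apart as bound in many cells or strongly bound in some.

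D19A belongs to the large insect family of C2H2 zinc finger proteins with an N-terminal zinc-finger-associated domain (ZAD). C2H2 fingers are small zinc-binding folds that usually act in tandem and read consecutive bases of DNA. Several members of the ZAD family bind insulators or promoters in flies.

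Signal value fell steeply with rank. It was 43197 for the first site, 18482 at rank 16, 6001 at rank 100, 3357 at rank 250 and 2078 for the last site, and the 500 sites held 36.6% of the summed signal of all 7769. The last 3 sites had 2086, 2080 and 2078, and the first 3 rows outside had 2077, 2072 and 2071, so no gap marked the boundary. The 500 entries covered 492 distinct intervals, because some intervals hold more than 1 summit. All 500 overlapped a peak in every replicate list. Of the other 7269 sites, 0.91, 0.72 and 2.20% lacked such a peak in replicates 1, 2 and 3, so overlap was near complete there too.

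Short words that recur close to summits were found outside the 500 sites, so that the shares in the 500 were not used to pick them. All 7-letter words with at least 3 G or C letters were counted, on both strands, in the 201 bp around the summits of the other 7269 IDR sites, and ranked by the excess over windows of equal length centred 400 bp to either side. The 12 leading words fell into 2 groups by a shared core, and words within a group overlap each other. Family 1 comprises 7 words, read with their reverse complements. They were ATACCCT, in 23.0% of the 500 sites, then TACCCTT, in 16%, then AATACCC, in 12%, then ACCCTTT, in 9.8%, then TATACCC, in 8.4%, then TACCCTA, in 6.6%, and lastly GATACCC, in 6.6%. Family 2 comprises 5 words. They were ACAGTGG, in 6.6% of the 500 sites, then CAGTGTA, in 4.2%, then CAGTGCA, in 4.0%, then TACAGTG, in 3.6%, and lastly TCAGTGT, in 3.0%. A match is a description of letters and not a binding site.

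Strong sites beyond rank 15 that hold ATACCCT and no family 2 word, with a better rank in replicate 3 than in replicate 2, are shown first, because they carry the first of the sequence patterns described below. Sequences are the 201 bp centred on the summit, on the plus strand of the RefSeq dm6 assembly, and avoid annotated exons. Capitals mark family 1 words. The intervals were chr3L:8185771-8185971 for ERR, chr3L:18003443-18003643 for Eip75B and chr3L:20493572-20493772 for ZnT77C. In replicates 2 and 3 these sites ranked 41 and 38 (ERR), 62 and 57 (Eip75B), and 70 and 60 (ZnT77C). Their lead in replicate 3 was therefore small. Names are those of the gene with the nearest transcription start site (TSS).
ERR: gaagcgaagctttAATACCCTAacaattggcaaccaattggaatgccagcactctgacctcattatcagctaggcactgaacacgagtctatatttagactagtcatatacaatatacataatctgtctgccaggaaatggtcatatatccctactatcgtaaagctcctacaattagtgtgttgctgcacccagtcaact
Eip75B: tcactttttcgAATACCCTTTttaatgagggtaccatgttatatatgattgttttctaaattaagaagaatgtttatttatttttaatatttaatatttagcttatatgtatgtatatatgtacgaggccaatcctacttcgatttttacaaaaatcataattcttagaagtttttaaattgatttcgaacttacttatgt
ZnT77C: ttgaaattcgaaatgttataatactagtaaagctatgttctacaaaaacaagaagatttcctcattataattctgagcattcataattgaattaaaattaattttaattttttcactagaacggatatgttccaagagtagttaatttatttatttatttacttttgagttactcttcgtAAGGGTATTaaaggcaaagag
In each of them the word lay in the outer part of the window, over 50 bp from the summit, and the middle was rich in A and T.

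Sites beyond rank 15 with family 2 words and no family 1 word, and with a better rank in replicate 2 than in replicate 3, are shown next, with family 2 words in capitals. They are strong examples and not the strongest, since some stronger sites that meet this description are not printed. Their intervals were chrX:493902-494102 for CG17896, chr2L:2202303-2202503 for CG31668, chr3R:11760941-11761141 for Lk6 and chr2L:13835345-13835545 for CenG1A.
CG17896: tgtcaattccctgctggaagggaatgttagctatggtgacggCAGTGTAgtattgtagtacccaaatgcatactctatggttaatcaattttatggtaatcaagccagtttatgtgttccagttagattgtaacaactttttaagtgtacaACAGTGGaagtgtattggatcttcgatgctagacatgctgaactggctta
CG31668: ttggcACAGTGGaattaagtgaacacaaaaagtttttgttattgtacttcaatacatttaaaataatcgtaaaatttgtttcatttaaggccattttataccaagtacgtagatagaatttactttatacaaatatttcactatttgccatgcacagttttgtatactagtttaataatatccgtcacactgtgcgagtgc
Lk6: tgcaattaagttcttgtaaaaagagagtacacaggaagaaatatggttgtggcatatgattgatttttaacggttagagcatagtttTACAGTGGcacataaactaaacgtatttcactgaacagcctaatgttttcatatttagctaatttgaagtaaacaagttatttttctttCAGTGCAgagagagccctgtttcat
CenG1A: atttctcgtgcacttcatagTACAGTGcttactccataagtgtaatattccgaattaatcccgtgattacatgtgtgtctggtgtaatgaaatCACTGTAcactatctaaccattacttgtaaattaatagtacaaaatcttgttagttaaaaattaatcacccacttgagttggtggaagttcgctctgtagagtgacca
A pair of such words stood in 3 of these windows, those of CG17896, Lk6 and CenG1A. Of the 500 sites, 281 (56.2%) held neither family. Strong examples beyond rank 15 outside annotated exons were chr2L:4811077-4811277, near lncRNA:CR45297, and chrX:21319362-21319562, upstream of SLIRP1, which serve as examples with no capitals.
lncRNA:CR45297: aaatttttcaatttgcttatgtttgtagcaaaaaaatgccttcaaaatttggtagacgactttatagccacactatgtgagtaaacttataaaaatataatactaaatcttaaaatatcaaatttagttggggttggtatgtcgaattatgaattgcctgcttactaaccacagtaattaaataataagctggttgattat
SLIRP1: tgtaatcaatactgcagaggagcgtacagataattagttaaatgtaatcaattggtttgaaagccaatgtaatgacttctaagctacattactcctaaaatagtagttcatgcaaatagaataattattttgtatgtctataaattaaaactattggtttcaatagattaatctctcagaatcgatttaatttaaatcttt

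The median summit of the 500 sites lay nearer to a TSS than that of the other IDR sites, although fewer of the 500 lay right at one. Of the 500, 174 lay within 250 bp of a TSS (34.8%, 95% Wilson interval 30.8 to 39.1), 197 in introns (39.4%, 35.2 to 43.7) and 112 between genes (22.4%, 19 to 26.3). Another 5 lay in 5′ UTRs, 6 in 3′ UTRs, 6 in other exons and none in a coding exon, where a count of 0 allows a share of up to 0.6% (3 counts of the total). Among the other 7269 sites the shares were 25.4% promoter, 46.8% intronic and 23.2% intergenic, with 26 in coding exons. The median distance to the nearest TSS was 523.5 bp in the 500 and 1183 bp in the others. Within 100 bp of a TSS the order was the reverse, with 36 of the 500 (7.2%) and 10.7% of the others. The promoter share did not fall steadily with rank, as it was 28.2% at ranks 501 to 1000 and 34.6% (93 of 269) in the last 269 rows. Intervals cover the counting of sites only, since no read counts were used and the depth is unknown.

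**Figure D1:**
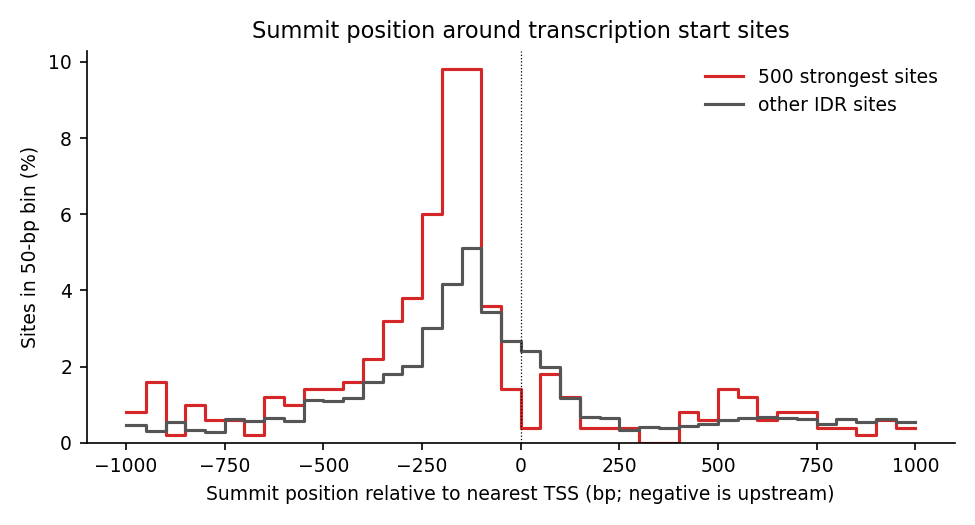
Summit positions relative to the nearest TSS in bins of 50 bp (x axis, bp, negative is upstream), as the percentage of all sites of a set (y axis), for the 500 strongest sites and the other 7269 IDR sites. The 500 peak at 9.8% in each of the bins from 200 to 100 bp upstream, where the others reach 4.17% and 5.12%, and dip to 0.4% in the first 50 bp downstream.

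The position was narrower than the promoter class shows. Of the 500 summits, 166 lay between 50 and 300 bp upstream of the nearest TSS (33.2%, 29.2 to 37.4), against 17.8% of the others. At ranks 501 to 1000 the share was 28% (24.2 to 32.1), with an interval that overlaps that of the 500. Between 50 and 300 bp downstream lay 21 (4.2%), against 4.87% of the others. Among promoter sites, 153 of 174 summits were upstream of the TSS (87.9%, 82.3 to 92.0), against 72.6% of the promoter sites among the others. Their median position was 142 bp upstream, with quartiles at 182 and 99 bp upstream. A promoter window of 250 bp therefore cut through the upstream group. It left out dap, whose summit was 309 bp upstream, and fbp, at 267 bp, which were counted as intergenic.

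The same differences were seen when each replicate was ranked on its own, by comparing its 500 strongest peaks with the next peaks down to rank 7769. Here and below, these comparisons are not independent of the 500 sites, since the pooled values come from the same 3 libraries. Of the 500 sites, 464, 447 and 411 were within the strongest 500 of replicates 1, 2 and 3. The share of summits 50 to 300 bp upstream was 30.8, 36.2 and 28.4% in the 500 strongest of replicates 1, 2 and 3, and 17.1, 20.1 and 16.6% in the next peaks. Their mean was 31.8% ± 4.0 (SD, n = 3), and the difference averaged 13.9 percentage points ± 2.14 (SD), with the same direction in 3 of 3 replicates. The promoter share was higher by 7.75 ± 2.29 points and the intronic share lower, with a difference of -6.68 ± 0.95 points, each in 3 of 3 replicates. Intergenic share differed by 0.22 ± 2.52 points, less than the spread between replicates. An exact 2-sided sign-flip permutation test gave p = 0.25 for the first 3 of these differences, the smallest value that 3 replicates allow, and p = 0.75 for the intergenic share.

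Divergent promoters, where another gene starts head to head within 500 bp, made up 45 of the 163 sites at promoters of protein-coding genes (27.6%, 21.3 to 34.9), against 29.5% in the others. In the 197 intronic sites, the intron of the longest transcript was its first in 97 (49.2%, 42.3 to 56.2), against 48.5% in the others, and the median intron length was 11446 bp against 12385 bp. Distal sites were fewer. Over 5 kb from any TSS lay 68 of the 500 (13.6%), against 21.2% of the others. The arms 2L, 2R, 3L, 3R and X held 97, 92, 92, 121 and 94 of the sites (19.4, 18.4, 18.4, 24.2 and 18.8%). Chromosome 4 held 4 (0.8%). Over all IDR sites the shares were 18.7, 17.2, 22.8, 22.4 and 17.5% on these arms and 1.42% on chromosome 4.

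At ranks 16 to 45, immediately below the very strongest sites, 15 summits stood at promoters. Afg3l2, a subunit of the mitochondrial AAA protease, stood at rank 18 with the summit 164 bp upstream of the TSS. SLIRP1, a mitochondrial RNA-binding protein, and anox, an acyl-CoA-binding protein, share the site at rank 24, which lay 166 bp upstream of SLIRP1. Mpi, mannose phosphate isomerase, stood at rank 35 with the summit 88 bp upstream. Prps, which makes phosphoribosyl pyrophosphate for nucleotide synthesis, stood at rank 39 with the summit 164 bp upstream. Hacd1, a dehydratase of very long chain fatty acid synthesis, stood at rank 44 with the summit 100 bp upstream, and Polr3G, a subunit of RNA polymerase III, at rank 45 with the summit 126 bp upstream. The replicates ranked these alike, for example 17, 18 and 18 for Afg3l2 and 48, 52 and 46 for Polr3G.

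The other promoter sites of these ranks included CG7694 and the kinase gene fray (rank 17), CG9328 (rank 20), CG32425 (rank 28), CG2926 (rank 30), wech (rank 33) and deltaCOP, a subunit of the COPI vesicle coat (rank 38). ERR, the fly nuclear receptor related to estrogen receptors, stood at rank 37 with its summit 201 bp upstream, as in the sequence shown above. The site at rank 19 was next to a noncoding RNA, lncRNA:CR34335, but inside DIP-alpha, which encodes an immunoglobulin cell-surface protein of neurons. Wech, which links integrins to the cytoskeleton in muscle attachment, had the widest of these promoter sites, at 1880 bp.

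Of the same ranks, 8 summits were intronic. Dhc64C, the heavy chain of cytoplasmic dynein, held the site at rank 22 in its first intron, 759 bp downstream of a TSS. Hr4, a nuclear receptor of the ecdysone response, held the site at rank 27, 1885 bp downstream. Ack-like, a tyrosine kinase gene, held the site at rank 34. Abd-B, the Hox gene of the posterior abdomen, held the site at rank 36, 1466 bp upstream of the nearest of its TSSs. CG3638, CG2747 and CG10543 held the sites at ranks 21, 26 and 43, all in the first intron.

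The intergenic and exonic sites of these ranks were mostly near the start of a gene. A site at rank 25 lay 309 bp upstream of dap, the inhibitor of cyclin-dependent kinases that ends embryonic cell cycles. The site at rank 29 lay 420 bp upstream of Act5C, a cytoplasmic actin, and that at rank 40 lay 267 bp upstream of fbp, fructose-1,6-bisphosphatase of gluconeogenesis. PHDP, a homeodomain gene, had the site at rank 42, 527 bp upstream. Rh5, a rhodopsin gene of photoreceptors, was the nearest gene to rank 32 at 1370 bp. The 5′ UTR of Pi3K92E, the catalytic subunit of class I phosphatidylinositol 3-kinase, held the site at rank 31. Further exonic sites were in the 3′ UTR of CG8188 (rank 66), the 5′ UTR of CG1888 (rank 122), exons of lncRNA:Vinr (ranks 131 and 151) and lncRNA:CR44628 (rank 145).

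Sites recurred in some genes. In 35 genes 2 or more of the 500 lay in the gene or at its promoter, and in 10 of them 3 or more. The gene with the most was sbb, also called brakeless, a transcriptional corepressor, with 7 sites between ranks 251 and 500 over 79099 bp, in which 18 IDR sites lie in all. Its promoter site ranked 446, 270 and 632 in replicates 1, 2 and 3. Hr4 and Eip75B, both nuclear receptor genes of the ecdysone response, held 3 each, at ranks 27, 95 and 379 and at ranks 54, 315 and 480. Btk, a tyrosine kinase gene, kirre, an immunoglobulin adhesion gene of myoblast fusion, and edl, a regulator of Ets factors under MAP kinase, also had 3 each. Inside Hr4, Eip75B, Btk, kirre and edl lay 11, 15, 12, 30 and 4 IDR sites in all, and kirre spans 394149 bp. Recurrence is therefore not shown to be particular to the 500. The 3 edl sites lay inside a gene of 6010 bp or at its promoter. In ph-p, a Polycomb repressive complex subunit, 3 summits shared 1 interval of 1935 bp. Pairs were found for example in pnt and aos, an effector and an inhibitor of EGF receptor signalling, in E2f1, a cell cycle factor, and in osa, a subunit of the Brahma remodelling complex. Members of a gene share their surroundings and are not independent. Some sites were counted for more than 1 gene, as those at ranks 360 and 471 were for aos and CG33158. Hosts of intronic sites were long, with a median of 21396 bp over 173 protein-coding genes, against 16715 bp for the 1464 hosts of the other intronic sites and 2166 bp for all 13945 protein-coding genes.

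Gene function was read through 29 lists holding 752 protein-coding genes. Of all protein-coding genes, 1.46% had one of the 500 summits within 250 bp of a TSS, and 3.60% had one in the gene or within 1 kb of a TSS. Among the list genes 17 had a promoter summit (2.26%) and 59 were linked by the wider rule (7.85%). Over all IDR sites, 2136 of the 13945 protein-coding genes had a promoter summit and 3970 were linked by the wider rule. In single lists, 13 of 22 carbohydrate metabolism genes and 13 of 29 Polycomb and Trithorax group genes were linked to any IDR site. The list shares are therefore not shown to be particular to the 500. List genes were longer than average, with a median of 4867 bp, and those linked had a median of 14928 bp; the part of length in the wider count was not tested. Wider links were found in 25 lists, and none in the segmentation factors, the Hedgehog pathway, the translation factors and the clock genes. These lists hold 33, 14, 40 and 12 genes, so at the share of 3.60% over all genes few links would be expected in them. Links to any IDR site were found for 11, 6, 18 and 6 of their genes.

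Carbohydrate metabolism had 6 of 22 genes linked and 3 at the promoter. Beyond the first 15 sites these were fbp (rank 40), Treh, the trehalase (rank 72), Gapdh2 and Eno of glycolysis (ranks 164 and 312), and Hex-A, a hexokinase, upstream of which a site of 1342 bp held the summits at ranks 216 and 344. Gapdh2 had its summit 177 bp upstream and ranked 229, 116 and 262 in replicates 1, 2 and 3. Eno had its summit 215 bp upstream and ranked 367, 245 and 415. Both had their best rank in replicate 2 and their worst in replicate 3. Among all promoter sites of the strongest set, 105 of 174 (60.3%) ranked better in replicate 2 than in replicate 3. This order is therefore not shown to be particular to carbohydrate metabolism. The list was not uniform, as the site of fbp ranked 46, 50 and 29, and that of Treh 75, 69 and 68.

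Chromatin regulators included 6 of 29 Polycomb and Trithorax group genes, with 2 at the promoter. They were ph-d (rank 48) and ph-p (rank 140), which encode related subunits of Polycomb repressive complex 1, Trl, which encodes the GAGA factor (rank 153), jing (rank 159), osa (rank 219) and trx, a histone methyltransferase that maintains Hox expression (rank 288). Insulator and architectural proteins had 3 of 19, namely Trl again, Chro, which encodes the chromatin protein Chromator (rank 114), and Cp190, a shared insulator cofactor (rank 309). Chro ranked 131, 76 and 247 in the replicates, Trl 182, 100 and 315, Cp190 341, 238 and 476, and trx 378, 204 and 442. These 4 genes had their best rank in replicate 2 and their worst in replicate 3, as did the stronger site in osa (296, 158 and 344). The interval of ph-p (137, 87 and 125), the site of ph-d (42, 57 and 54) and that of jing (128, 219 and 144) did not share this order. Among all the strongest sites, 218 (43.6%) ranked better in replicate 2 than in replicate 3. Replicate 1 lay between the other replicates in 190 of these 218. Of promoter sites, 60.3% ranked better in replicate 2 than in replicate 3. The order is therefore not shown to be particular to chromatin or insulator genes. In the ZAD list, 1 of 23 genes was linked, D19B, the neighbouring paralogue of D19A, through the site at rank 468 beside CG43293. Any IDR site was linked to 7 of the 19 insulator genes and 6 of the 23 ZAD genes.

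Hormone receptors had 5 of 22 genes linked, Hr4, ERR, Eip75B, Hr3 (rank 264) and ftz-f1 (rank 277). Of the signalling lists, the EGF receptor and MAP kinase cascade had 4 of 24, among them pnt, aos and edl. The Hippo pathway had 3 of 15, the transcription factor gene sd (rank 133) and the upstream regulators kibra (rank 150) and ex (rank 291). Notch had 3 of 20, including E(spl)m7-HLH, a target repressor (rank 338), and mam, a coactivator (rank 343). TGF-beta had 2 of 21, the receptor gene tkv (rank 327) and the factor gene shn (rank 377), and Wingless had 1 of 25, the kinase gene gish (rank 161). Cell adhesion and axon guidance had 5 of 42 by the wider rule, namely DIP-alpha, kirre, Ten-a, sli and PlexB, and none at the promoter. Neural RNA-binding genes msi (rank 130), elav (rank 272) and bru3 (rank 350) were the 3 of 41 in the mRNA processing list. Any IDR site was linked to 16 of the 22 hormone receptor genes, 16 of 24 EGF receptor and 9 of 15 Hippo genes. The same held for 10 of 20 Notch, 14 of 21 TGF-beta and 15 of 25 Wingless genes. It also held for 32 of 42 adhesion and 25 of 41 mRNA processing genes.

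Sites narrowed with rank. In the IDR list, 444 bp was the commonest width, held by 48.3% of the other sites and by 1 of the 500. In the replicate lists 1 width was shared by 91.0, 85.3 and 93.8% of the peaks below the 500 strongest, so most widths there are a single fixed value. The 500 sites ran from 268 to 3270 bp, with a median of 569.5 bp and quartiles of 466 and 783.5 bp. The median was 1042 bp at ranks 1 to 50 and 452.5 bp at ranks 451 to 500, and 54 sites were over 1000 bp. The widest, at 3270 bp, held the summits of ranks 89 and 202 beside lncRNA:CR31840. Next came the sites of Pli (2366 bp), lncRNA:CR45297 (2140 bp) and ph-p (1935 bp). The narrowest were a pair of overlapping sites upstream of Lamp1 (268 and 325 bp) over a 1360 transposable element, and the site of tank (337 bp).

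**Figure D2:**
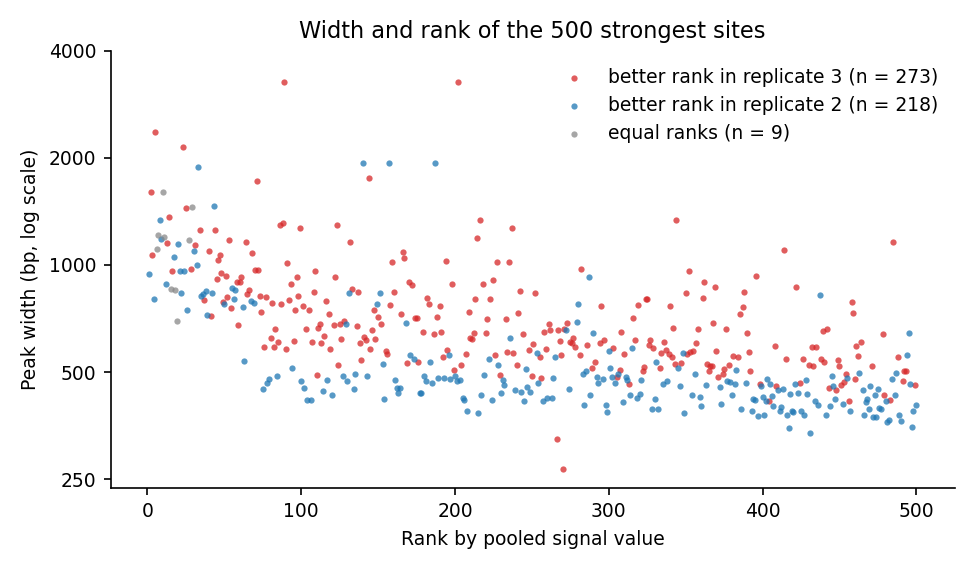
Peak width (y axis, bp, log scale) against rank by pooled signal value (x axis) for each of the 500 sites, coloured by the replicate, 2 or 3, in which the site ranked better. Below the first ranks, sites that ranked better in replicate 2 form a lower band and sites that ranked better in replicate 3 an upper band. Over all ranks the median widths were 464.5 bp and 656 bp. Sites that ranked better in replicate 2 made up 26% at ranks 51 to 100 and 60% at ranks 451 to 500. The part of rank in the width difference was not tested.

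Ranks in the replicates split the sites into 2 groups. Replicate 3 ranked 273 sites ahead of replicate 2 (54.6%), replicate 2 ranked 218 ahead of replicate 3 (43.6%), and 9 were equal. Among the other 7269 sites the balance was the reverse, with 43.1% ahead in replicate 3 and 54.0% ahead in replicate 2. The log2 ratio of the rank in replicate 3 to that in replicate 2 had 82 sites between -0.75 and -0.5 and 65 in the bin that starts at 1, with 12 between 0.25 and 0.5. Replicate 1 lay between replicates 2 and 3 in 381 of 500 sites (76.2%), against 56.0% of the other sites. At ranks 1 to 50 the highest replicate rank was 1.22 times the lowest in the median site, and at ranks 451 to 500 it was 1.99 times. In 173 sites the ratio was 2 or more. Its median was 1.74 over the 500 and 1.72 over the other sites. Of the 6 largest ratios, 5 were of sites ahead in replicate 2. These were Ugalt, the UDP-galactose transporter gene (88, 38 and 162 in replicates 1, 2 and 3), the site near cbt within ush (81, 32 and 131), PNPase (116, 59 and 235), CG11050 (102, 45 and 173) and px (85, 43 and 160). The largest was of a site ahead in replicate 3, next to the chaperone gene Cnx99A (163, 705 and 102), over an annotated jockey element and beside a stronger site at rank 90. Within the 500 strongest of their own list were 464 of the sites in replicate 1, 447 in replicate 2 and 411 in replicate 3.

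The groups differed in measures that the ranks do not contain. Sites ahead in replicate 2 were promoter sites in 105 of 218 (48.2%, 41.6 to 54.8), and sites ahead in replicate 3 in 65 of 273 (23.8%, 19.1 to 29.2). Their median distance to a TSS was 273.5 bp against 790 bp. Divergent promoters made up 33.7% (34 of 101) against 16.9% (10 of 59), with intervals of 25.2 to 43.3 and 9.5 to 28.5 that overlap. Transposable elements overlapped 17 of the 500 sites (3.4%), against 2.45% of the others. Of these 17, 16 were ahead in replicate 3, 1 had equal ranks and none was ahead in replicate 2, where a count of 0 allows up to 1.38% of the 218 (3 counts). Replicates are 1 library each, so a difference between replicates 2 and 3 compares these libraries. The split was noticed in these data and carries no test, and what sets it was not tested.

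Family 1 words were more frequent in stronger sites. ATACCCT, the leading word, lay within 100 bp of the summit in 115 of the 500 sites (23.0%, 19.5 to 26.9) and in 11.6% of the others. It was in 2.0% of windows centred 400 bp away from the 500 summits, in 1.88% of all 201-bp tiles of the genome and in 1.98% of windows of that length centred 150 bp upstream of protein-coding TSSs. At ranks 1 to 50 it was in 24 of 50 sites, at ranks 301 to 350 in 2, at ranks 351 to 400 in 13 and at ranks 451 to 500 in 6. At ranks 501 to 1000 it was in 69 of 500 (13.8%). Any family 1 word was in 146 of the 500 (29.2%, 25.4 to 33.3) and in 19.4% of the others, with 8.39% of genome tiles. By class, ATACCCT was in 44 of 174 promoter sites of the 500 (25.3%) and in 5.64% of those among the others, and in 21.8% against 13.7% of intronic sites. In the 500 strongest peaks of replicates 1, 2 and 3 it was in 24.0, 20.2 and 26.4%, and in 12.2, 10.1 and 12% of the next peaks. That difference averaged 12.1 percentage points ± 2.13 (SD, n = 3), with the same direction in 3 of 3 replicates (exact 2-sided sign-flip permutation test, p = 0.25, the smallest possible).

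Family 2 words did not follow strength in that way. Any of them lay within 100 bp of 81 of the 500 summits (16.2%, 13.2 to 19.7), of 20.9% of the other summits and in 9.59% of genome tiles. The families were mostly in different sites, since 8 of the 500 held both.

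The families divided along the replicate ranks. ATACCCT was in 92 of the 273 sites ahead in replicate 3 (33.7%, 28.4 to 39.5) and in 19 of the 218 ahead in replicate 2 (8.72%, 5.65 to 13.2). Family 2 words were in 16 of the 273 (5.86%, 3.64 to 9.31) and in 65 of the 218 (29.8%, 24.1 to 36.2). In flanking windows 400 bp away, family 2 words were in 11.2% of the former and 11.5% of the latter. The division was also seen within classes. Among promoter sites, family 2 words were in 26 of 105 ahead in replicate 2 and in 4 of 65 ahead in replicate 3. Among intronic sites they were in 27 of 73 and 10 of 122. In the other 7269 sites the same direction held, with ATACCCT in 5.43% of those ahead in replicate 2 and 19.6% of those ahead in replicate 3, and family 2 words in 27.8% and 12.3%. The promoter share differed less there, with 27.4% and 21.8%.

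**Figure D3:**
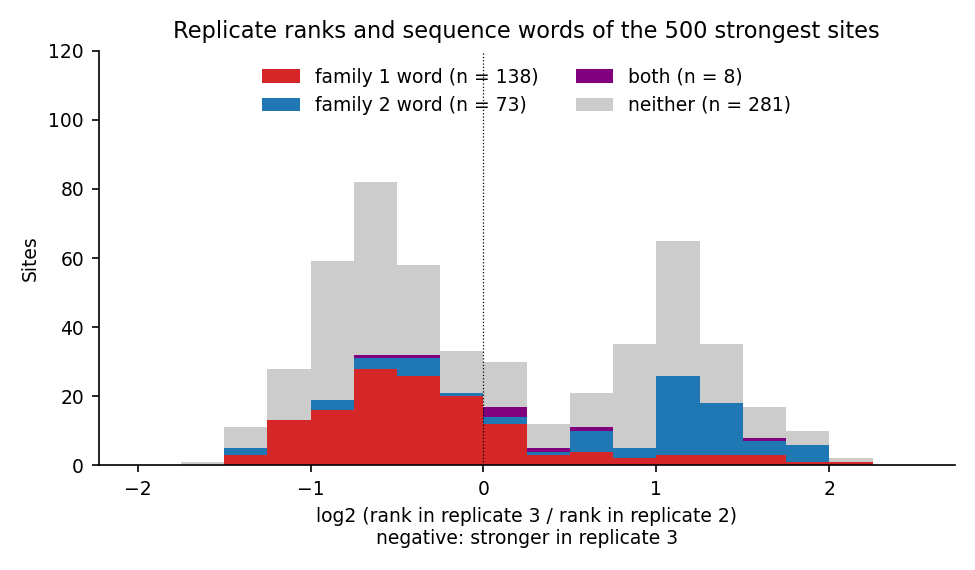
The log2 ratio of a site's rank in replicate 3 to its rank in replicate 2 (x axis, bins of 0.25) against the number of the 500 sites (y axis), stacked by the words within 100 bp of the summit. Sites with only family 1 words (138) lie mostly below 0, sites with only family 2 words (73) mostly above 0, and sites with neither (281) on both sides.

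In the 500, words were densest beside the summit. In sites ahead in replicate 3, family 1 matches were at 79.5 per 100 sites and 100 bp between 50 and 100 bp from the summit, against 51.6 within 50 bp and 9.16 at 200 to 300 bp. In sites ahead in replicate 2, family 2 matches were at 40.8 per 100 sites and 100 bp between 50 and 100 bp, against 6.88 within 50 bp and 6.88 at 200 to 300 bp. Overlapping words of a family each counted once per position, so these are densities of matches and not of separate elements.

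**Figure D4:**
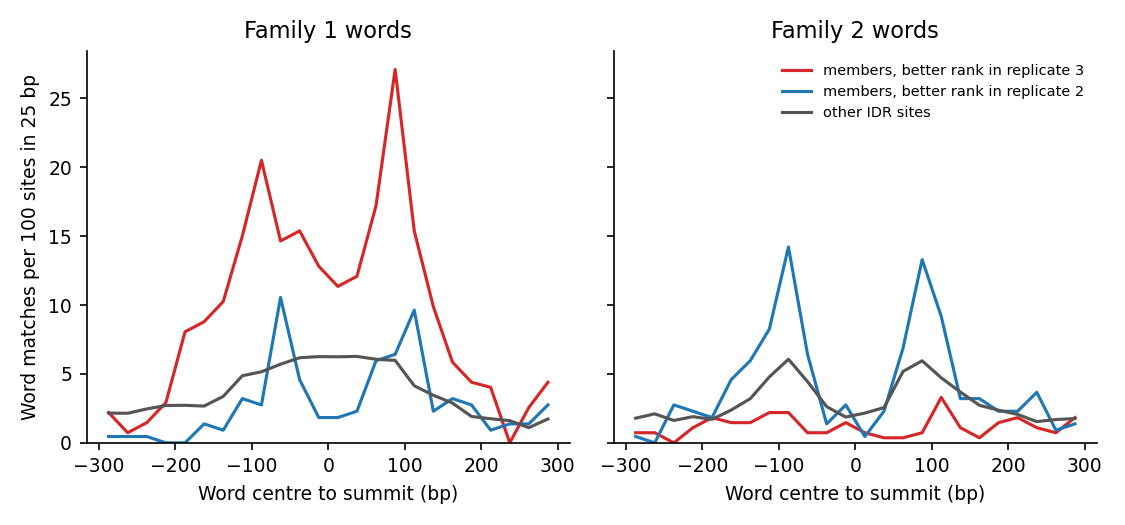
Matches of family 1 words (left) and family 2 words (right) per 100 sites in bins of 25 bp (y axis) by distance of the word from the summit (x axis, bp), for sites of the 500 ahead in replicate 3, sites of the 500 ahead in replicate 2 and the other 7269 sites. Family 1 in the first group and family 2 in the second peak between 50 and 100 bp on either side of the summit, with lower values at it.

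The summit itself was rich in A and T. The 101 bp around the 500 summits held 71.1% A+T on average, against 67.3% in the others, and windows centred 200 bp away held 56.6% and 57.8%. The level was not particular to the 500, since the sites at ranks 501 to 1000 had 71.2%. In the replicates the 500 strongest peaks had 70.9% ± 0.33 (SD, n = 3) and the next peaks 66.7% ± 0.92, with the 500 higher in 3 of 3 (exact 2-sided sign-flip permutation test, p = 0.25, the smallest possible). Of the 8-letter words that led within 50 bp of the other summits, all 12 were made of A and T alone. The first of them, AAATATAT, was in 47 of the 500 (9.4%, 7.1 to 12.3), in 7.5% of the others and in 1.6% of the flanks of the 500. A+T at the summit was 72.6% in sites ahead in replicate 2 and 69.9% in those ahead in replicate 3. The A+T-rich centre was thus common to both, while the words at its sides differed in frequency. Family 1 matches also lay beside the summit in sites ahead in replicate 2. They were at 25.7 per 100 sites and 100 bp between 50 and 100 bp, against 10.6 within 50 bp. Neither family was present in 57.8% of sites ahead in replicate 2 and 55.3% of those ahead in replicate 3.

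**Figure D5:**
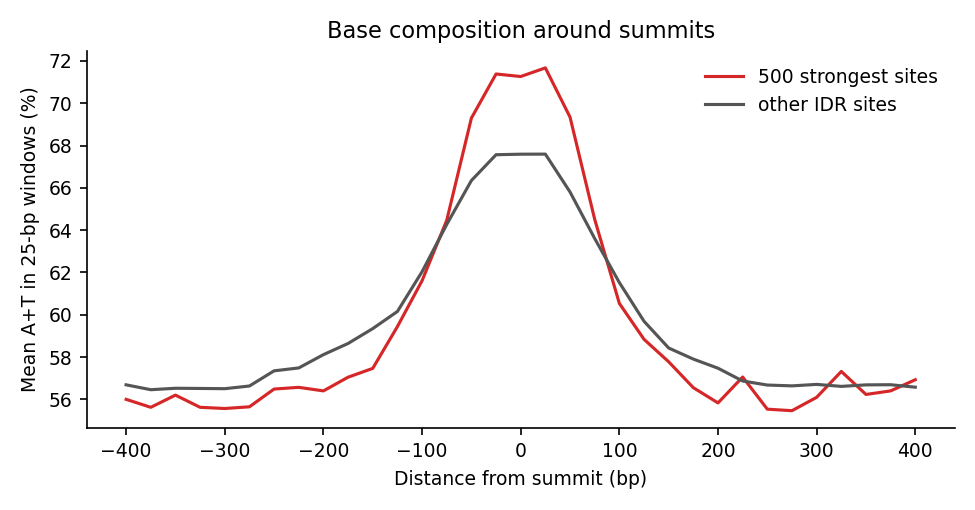
Mean A+T content in windows of 25 bp (y axis, %) by distance from the summit (x axis, bp) for the 500 strongest sites and the other 7269 IDR sites. The 500 reach 71.3% at the summit and the others 67.6%, and both fall to between 55 and 59% from about 175 bp outwards.

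Sites over 10 kb from any TSS numbered 25 (5.0%). The site farthest from any TSS lay 43216 bp from lncRNA:CR40341, at rank 443 and over an annotated H element. The next lay 32123 bp from CG43245 (rank 470), and then came sites 29834 bp into kirre (rank 365), 25665 bp from mir-2492 within Drak, a kinase gene (rank 103), and 22078 and 20120 bp into sbb (ranks 500 and 494).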

How the data were processed

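Binding was measured by ChIP-seq in 3 samples that the labels call biological replicates, of 1 group. The authors deposited 1 peak list per replicate, 1 pooled list and the IDR list, in dm6, per the record files and labels. Signal values in these lists are the authors', with no stated normalization, and were used as ranks within a list. Names of the software for alignment and peak calling, and the IDR cutoff, were not given in the sources used here. Library depth is unknown. Each replicate list holds 30000 peaks.

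The 500 members, the gene lists and the word comparison were chosen with earlier results of these data known. The word families and the replicate split were added after the data were seen. A summit was a promoter summit within 250 bp of any of 23581 TSS positions of 18164 genes (Ensembl release 115, transposable elements left out); summits elsewhere were classed first by UTR or coding overlap and then as intronic, exonic or intergenic. A site's replicate rank was that of the strongest overlapping peak (at least 1 bp). Intervals are 95% Wilson intervals. Named sites were ranks 16 to 45, the 6 strongest of each class beyond rank 15, the widest, narrowest and farthest, those of largest rank ratio, the boundary, genes with several sites and the 4 strongest per list; the shown sequences were chosen after their values were seen. A few items that these rules name are not reported here. Python 3.11.15, numpy 2.4.6, pandas 2.3.3 and matplotlib 3.10.9 were used, and the procedures were tested on simulated data.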

Additional observations from a re-analysis of the deposited data

How the results depend on the processing

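The promoter share was 7.2, 49.0 and 64.2% with windows of 100, 500 and 1000 bp, against 10.7, 35.2 and 46.6% of the other IDR sites, so that the contrast turned direction at 100 bp, and 30.2 to 33.8% when the members were chosen again from pairs of replicates. Intronic share was 36.0% in 250 and 42.8% in 1000 members, 40.4% with protein-coding TSSs only and 40.4 to 40.6% without single replicates, and intergenic share was 22.0 to 25.4% without them. Median distance was 594 bp with protein-coding TSSs only, and 525.5 to 581.5 bp without single replicates. The divergent share was 24.7% in 250 and 30.0% in 1000 members, 36.4, 19.6 and 18.3% with windows of 100, 500 and 1000 bp, and 24.5 to 27.0% without single replicates. A+T was 71.5% in 51 bp, 67.9% in 201 bp, and 69.2 to 69.9% without single replicates. Members within the 500 strongest of every replicate numbered 357, against 358 to 413 in pairs of replicates, and the matching counts were 171 for 250 and 695 for 1000 members. List genes at a promoter numbered 17, against 11 and 33 with 250 and 1000 members, 3, 26 and 33 with the 3 windows, and 59 with the wider link; the window or number sets these counts by construction, and the cause of the other shifts was not tested. ATACCCT was in 32.0% of 250 and 18.4% of 1000 members, and in 7.4 and 30.6% with 101 and 301 bp, settings added after the data were seen. Contrasts between sites ahead in replicate 2 and in replicate 3 kept their sign under the 4 other ways of splitting or choosing sites that were run, but outside the 500 they shrank, for promoters from 24.4 to 5.59 percentage points, for ATACCCT from -25.0 to -14.2 and for family 2 words from 24.0 to 15.5.

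Peak lists without counts limit precision to the number of sites and the spread of 3 replicates, which cannot give a p below 0.25. No paired analysis was possible because the labels give 1 group, so that replicate numbers pair no samples across groups; differences within replicates are in the report.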
